A study of Mus musculus with 6 samples.

Results

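The 40 genes described here encode the machinery of mitosis: the cyclins and kinases that drive entry, the spindle and its motors, the kinetochore, the spindle checkpoint and the ring of cytokinesis. They were chosen by gene symbol, and all 40 matched an Ensembl identifier among the 46078 genes of the count tables; all 40 were among the 18097 genes tested. Total RNA from mice was sequenced in 3 libraries labelled JMML, for juvenile myelomonocytic leukemia (a cancer in which monocytic and granulocytic cells build up) and 3 libraries labelled wild type (WT). Per its title, the series concerns mice in which blood formation of the fetal kind is sustained and leukemia kills young animals. The labels used here give neither tissue, age and strain nor the altered gene or the promoter that drives it, nor whether each replicate is its own animal. The p-values therefore cover only the spread between these 6 libraries, which may be in part technical. The letter F closes the sample identifiers of JMML replicates 1 and 2, and M closes the remaining 4. Counts of Xist, the RNA of the inactive X chromosome, were 54449 and 49961 in the pair with F and never above 36 with M. Sex thus differs partly with the group and also within JMML.

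Cells that divide make most of these transcripts late in the cell cycle and destroy many of the proteins when mitosis ends, so the RNAs are widely read as marks of cycling cells. In blood-forming tissue the cycling cells are mainly progenitors and precursors, while mature neutrophils and platelets no longer divide. Late cell cycle promoters are known to be held silent in resting cells by the DREAM complex and switched on by B-Myb (Mybl2) and FoxM1 with the MuvB core. MuvB binds the cell cycle genes homology region (CHR), most often TTTGAA near the transcription start, and the factor NF-Y binds CCAAT boxes upstream of it.

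Promoter windows from RefSeq (GRCm38.p6, from 250 bases before to 50 after the transcription start) were at hand for 34 members, all but Foxm1, Ccna2, Tpx2, Aurkb, Incenp and Kif20a. The windows of the 5 members that passed the test in the fit without length adjustment are printed because these genes differed between the groups in opposite directions. Letters run 5′ to 3′ on the gene's strand, and capitals mark TTTGAA or TTCGAA and CCAAT on either strand, found as exact letters; none of them overlapped in these windows.
Ccnb2, chr9:70421505-70421804, strand -: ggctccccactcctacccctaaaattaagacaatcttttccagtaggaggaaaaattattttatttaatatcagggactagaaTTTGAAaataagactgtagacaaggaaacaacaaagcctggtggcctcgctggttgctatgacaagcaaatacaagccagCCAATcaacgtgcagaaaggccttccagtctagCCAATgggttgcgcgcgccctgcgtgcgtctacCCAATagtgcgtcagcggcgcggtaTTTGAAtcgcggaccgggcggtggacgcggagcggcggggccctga
Pttg1, chr11:43425932-43426231, strand -: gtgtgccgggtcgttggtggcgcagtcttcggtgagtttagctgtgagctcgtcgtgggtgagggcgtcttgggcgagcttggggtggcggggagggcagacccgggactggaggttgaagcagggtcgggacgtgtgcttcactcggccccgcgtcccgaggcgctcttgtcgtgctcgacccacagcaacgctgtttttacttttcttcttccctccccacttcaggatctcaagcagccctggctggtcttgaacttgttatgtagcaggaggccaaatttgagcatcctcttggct
Mki67, chr7:135716330-135716629, strand -: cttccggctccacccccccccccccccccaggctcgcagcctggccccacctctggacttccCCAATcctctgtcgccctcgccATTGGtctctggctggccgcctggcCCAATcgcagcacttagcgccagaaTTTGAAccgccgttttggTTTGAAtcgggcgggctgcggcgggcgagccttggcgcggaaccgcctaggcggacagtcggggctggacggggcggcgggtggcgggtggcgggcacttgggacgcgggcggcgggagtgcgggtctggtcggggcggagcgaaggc
Aspm, chr1:139454523-139454822, strand +: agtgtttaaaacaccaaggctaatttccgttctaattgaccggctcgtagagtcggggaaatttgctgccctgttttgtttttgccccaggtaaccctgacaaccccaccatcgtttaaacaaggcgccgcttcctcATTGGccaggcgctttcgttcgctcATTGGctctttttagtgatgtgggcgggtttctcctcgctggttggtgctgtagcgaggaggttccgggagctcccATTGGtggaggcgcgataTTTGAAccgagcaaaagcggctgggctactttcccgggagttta
Cenpf, chr1:189688037-189688336, strand -: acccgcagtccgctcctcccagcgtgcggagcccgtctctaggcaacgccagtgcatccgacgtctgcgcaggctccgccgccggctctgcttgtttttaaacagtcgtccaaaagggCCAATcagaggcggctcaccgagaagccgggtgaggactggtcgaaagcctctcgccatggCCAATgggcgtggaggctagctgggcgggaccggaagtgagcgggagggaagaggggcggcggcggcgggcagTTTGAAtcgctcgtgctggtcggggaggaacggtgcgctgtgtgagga
The window of Ccnb2, which was higher in JMML, held TTTGAA at −167 and at base 5 of the transcript and CCAAT at −87, −54 and −21. The windows of Cenpf and Aspm, which were lower in JMML, held TTTGAA beginning at base 3 and base 7. The window of Mki67, also lower, held it at −116 and −98, and the window of Pttg1, which was higher, held none of the motifs. That Pttg1 window lies inside the annotated gene, whose 5′ end is at 43426251. The bases upstream of that end were not searched. Among the 34 members 26 (76.5%) held TTTGAA or TTCGAA and 22 (64.7%) also held CCAAT, against 21.7% and 8.61% of the 27025 genes with a window. The median log2 fold change, JMML over WT, was 0.08 for the 26 members with TTTGAA or TTCGAA and 0.08 for the 8 without.

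With TMM scaling and no covariate, the mitotic genes as a group were at nearly the same level in JMML and WT libraries. Of the 40, Pttg1 and Ccnb2 were higher in JMML and Mki67, Aspm and Cenpf were lower, by the quasi-likelihood test of edgeR (Benjamini-Hochberg adjusted p under 0.05 over all tested genes). Those 5 of 40 stand against 26.2% of all tested genes called in either direction, 12.4% higher and 13.8% lower. The DESeq2 Wald test called the same 5 members, with 32% of all tested genes called, 15.1% higher and 16.9% lower, and limma-voom called them too, with 27% called, 12.3% higher and 14.7% lower. The median log2 fold change was 0.07 over the members and −0.02 over all tested genes. No fitted log2 fold change of a member reached 2-fold: they lay between −0.45 and 0.69. For all 35 members that were not called, the 95% confidence interval lay within 2-fold either way, and for 28 of them within 1.5-fold.

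The values in each library are given as CPM, counts scaled to library size, here with the TMM method that sets libraries to a common effective size. Together the 40 members summed to 8069, 8014 and 9387 CPM in JMML replicates 1, 2 and 3, and to 9048, 8908 and 9140.0 CPM in WT replicates 1, 2 and 3. JMML replicate 3 was above all 3 WT libraries and JMML replicates 1 and 2 were below them. That order depends on the TMM scaling: as a share of all counts the members took 0.719%, 0.778% and 0.895% in JMML, against 0.954%, 0.987% and 0.946% in WT, and all 3 JMML libraries then lay below all 3 WT libraries. Mki67 and Top2a carried much of that sum. Without them the other 38 members summed to 5004, 5039.8 and 5981 CPM in JMML, against 5306, 5078 and 5190.0 CPM in WT. JMML replicate 3 gave the highest value of all 6 libraries for 26 of 40 members and the lowest for none, JMML replicate 1 the lowest for 16 and JMML replicate 2 the lowest for 9. The median SD of log2 CPM over members was 0.19 within JMML and 0.09 within WT, against 0.19 and 0.18 over all tested genes. The members thus varied like all tested genes within JMML and less than them within WT. The SD was larger in JMML for 32 of 40 members, and for 51.4% of all tested genes.

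**Figure D1:**
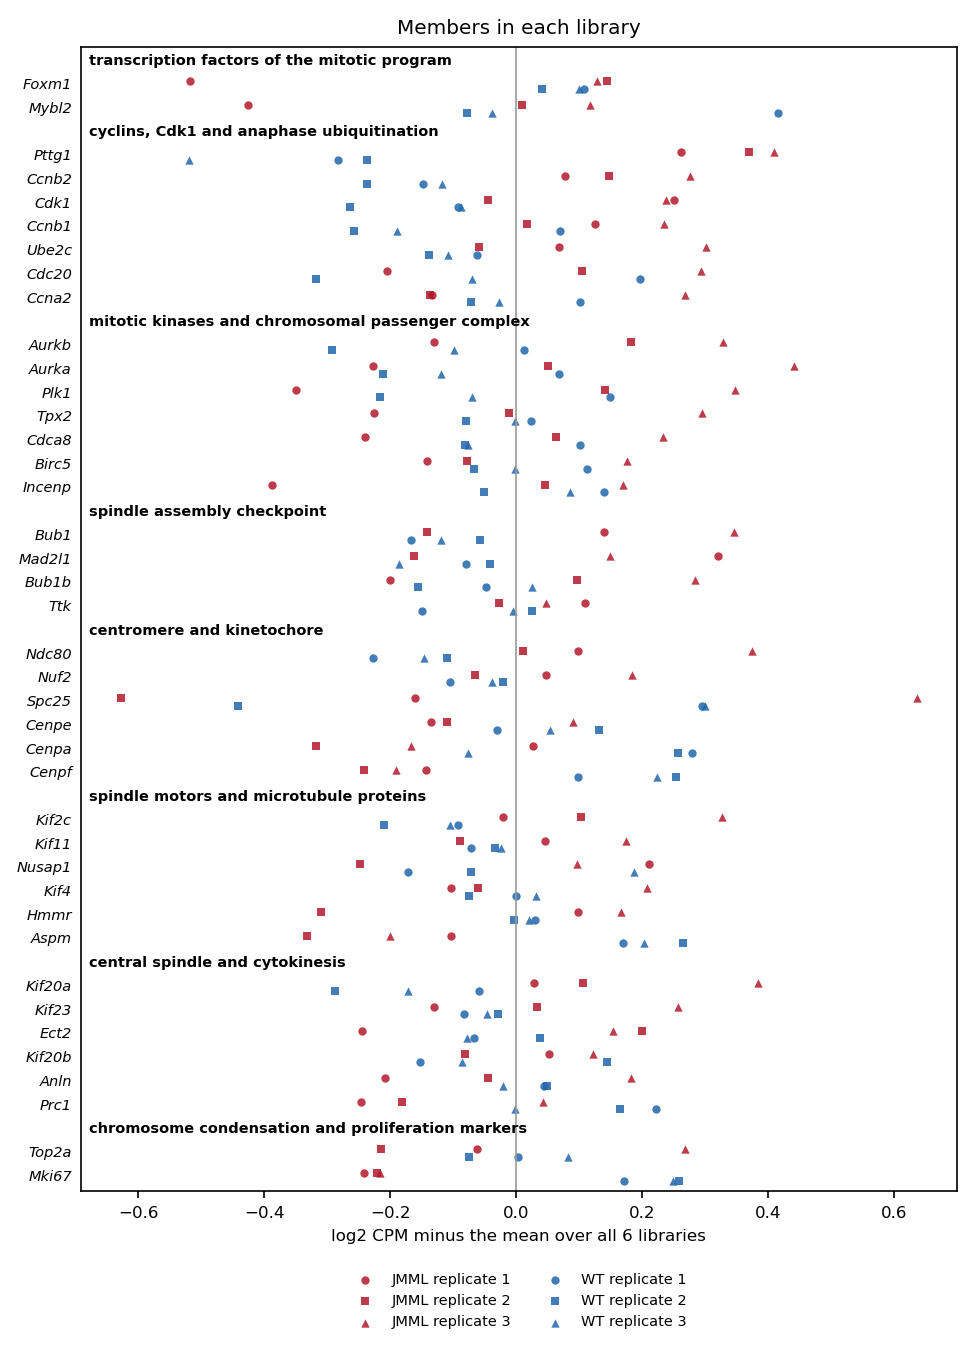
Each point is 1 library; the horizontal axis is log2 CPM minus that gene's mean over the 6 libraries, with JMML points (red) drawn above WT points (blue) and genes grouped by role. JMML replicate 3 (red triangles) was the highest library for 26 of 40 members. The groups separate for 10 of the 40, 7 with JMML above WT and 3 with JMML below. Over all tested genes the groups separate for 47.5%, 22.9% with JMML above and 24.6% with JMML below.

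The 6 libraries differed in how counts depended on transcript length, and the members are long. Their total exon length (the union of all annotated exons) had a median of 4926.5 bp, against 3616 bp over all tested genes with a length. Over all tested genes, split into 5 classes of like size by length, the median log2 fold change was 0.17 in the shortest class (up to 1567 bp) and −0.21 in the longest (from 6785 bp). The 3 members called lower, Cenpf (15433 bp), Aspm (11590 bp) and Mki67 (10061 bp), were the 3 longest of the 40. Ccnb2 (1531 bp) was the shortest and Pttg1 (2000 bp) the third shortest. Over the 40 members, log2 fold change and exon length had a Spearman correlation of −0.51, and over the 17976 tested genes with a length it was −0.16; genes share the same 6 libraries and are not independent.

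A second fit removed that trend with a loess curve of each library's deviation against log2 exon length, centred so that the median gene was unmoved. In this length-adjusted fit 2 members, Pttg1 and Ndc80, were higher and 0 lower, with 6 at an unadjusted p under 0.05, against 40.5% of all tested genes; 25.7% of all tested genes were called in either direction, 13.4% higher and 12.3% lower. In the fit without adjustment 9 members had an unadjusted p under 0.05, against 40.9% of all tested genes. The members' median became 0.13, against 0.01 over all tested genes, and 30 of 40 log2 fold changes were above 0, against 27 without adjustment. The Spearman correlation with exon length over the members became −0.16. In this fit the 95% interval lay within 2-fold for all 40 members and within 1.5-fold for 32. In the longest class, which holds 11 members, the members' median was −0.04 without adjustment, against −0.21 for all 3593 genes of that class, and 0.14 with it.

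**Figure D2:**
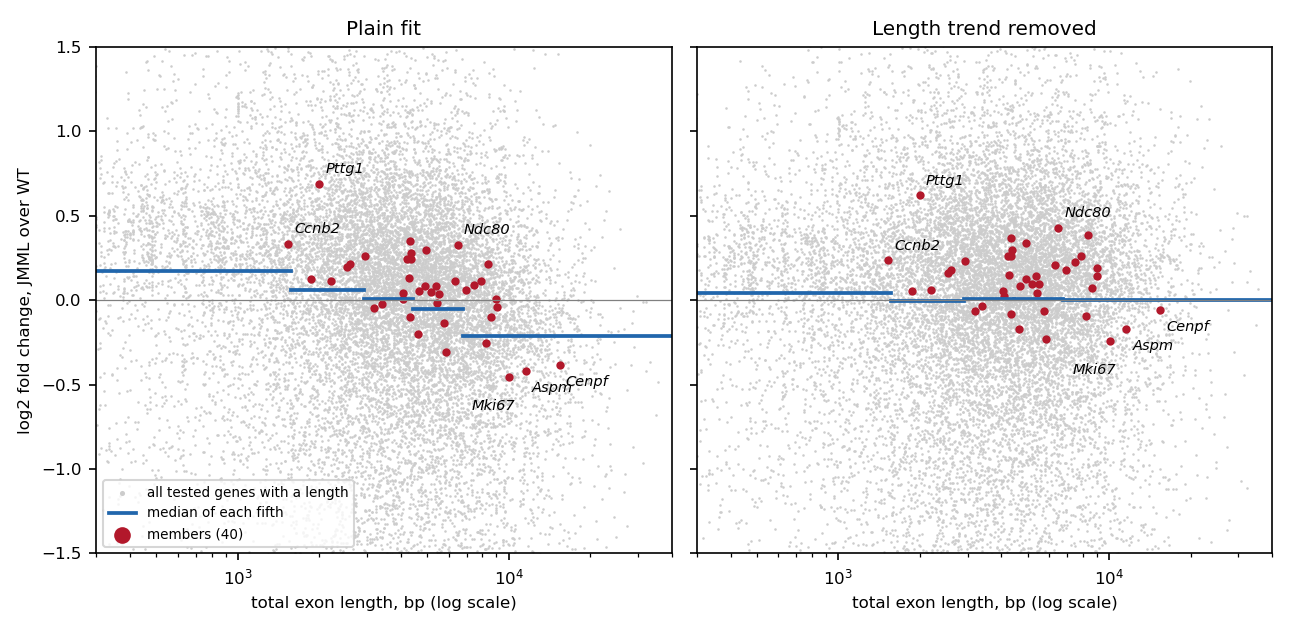
Log2 fold change, JMML over WT, against total exon length (log scale) without length adjustment (left) and with the trend removed (right); grey points are all tested genes with a length, red points the 40 members, and blue lines the median of all tested genes in each of 5 length classes. Points beyond 1.5 on the log2 scale are not drawn. The blue lines step from 0.17 in the shortest class to −0.21 in the longest on the left and lie near 0 on the right, and Cenpf, Aspm and Mki67 move up between the panels.

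Ki-67 and topoisomerase II alpha were the most abundant of the group. Mki67, which encodes the coat protein of mitotic chromosomes used as a proliferation mark (ENSMUSG00000031004, chromosome 7, 135689784 to 135716361, minus strand, GRCm38), had 1873, 1900.4 and 1905 CPM in JMML, against 2494, 2648 and 2632 CPM in WT. All 3 JMML libraries lay below all 3 WT libraries and close to each other. The log2 fold change was −0.45 ± 0.13 (SE; adjusted p = 0.0377), and −0.24 (95% interval −0.53 to 0.04; adjusted p = 0.18) with length adjustment, where the groups still did not overlap. That adjustment used total exon length. With the longest transcript as the length in the same edgeR test, it was −0.09 (adjusted p = 0.648). Without length adjustment, the call also ended when any single library was left out, at log2 fold changes between −0.44 and −0.40 and adjusted p between 0.0564 and 0.119. Per kilobase of total exon length, Mki67 averaged 188 ± 1.76 CPM in JMML and 258 ± 8.40 CPM in WT (SD, n = 3 each), the highest level of the 40. Top2a, the enzyme that untangles sister chromatids, came next at 139 ± 24.4 CPM per kb in JMML and 139 ± 7.55 in WT. The order of these genes depends on the length used. Total exon length was 9013 bp for Top2a, whose longest transcript has 5221 bp, and 10061 bp for Mki67 by either measure. The log2 fold change of Top2a was 0.01, with an interval from −0.37 to 0.38.

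The transcription factors of the program were not called. Mybl2 (B-Myb) had 58.9, 79.6 and 85.8 CPM in JMML, against 105, 74.9 and 77.0 CPM in WT, and Foxm1 had 52.7, 83.3 and 82.4 CPM in JMML, against 81.3, 77.6 and 80.8 CPM in WT. JMML replicate 1 was the lowest library for both genes, and the groups overlapped. Their log2 fold changes were −0.20 ± 0.19 and −0.13 ± 0.18. They were not called in edgeR, the DESeq2 Wald test or limma-voom, which called 26.2%, 32% and 27% of all tested genes. Of these 2 genes, 0 had an unadjusted p under 0.05 in edgeR, against 40.9% of all tested genes.

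Among the cyclins, Cdk1 and the genes of anaphase ubiquitination, all 7 log2 fold changes were above 0 in both fits, with a median of 0.25 without and 0.24 with length adjustment. Pttg1 encodes securin, the inhibitor of separase that is destroyed at anaphase (ENSMUSG00000020415, chromosome 11, 43420250 to 43426251, minus strand). It had 13.2, 14.3 and 14.7 CPM in JMML, against 9.08, 9.37 and 7.71 CPM in WT. The groups did not overlap, and the log2 fold change of 0.69 ± 0.15 (adjusted p = 0.0164; interval 0.34 to 1.04) was the largest of the 40. It remained 0.62 (adjusted p = 0.0242) with length adjustment. The call held without each single library when length was not adjusted for (adjusted p between 0.0259 and 0.0462). It ended with the identifier letter as a covariate (adjusted p = 0.0668), in the 4 libraries with the letter M (0.79; adjusted p = 0.0735), with library totals alone (0.50; adjusted p = 0.0627) and with the replicate number as a block (adjusted p = 0.0531). The length-adjusted call held in 2 of the 6 fits that each left out a library (adjusted p between 0.0301 and 0.0616, log2 fold change 0.59 to 0.71). Pttg1 was also the least abundant member per kilobase, at 7.03 ± 0.370 CPM per kb in JMML and 4.36 ± 0.444 in WT.

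Ccnb2, a B-type cyclin that activates Cdk1, had 154, 162 and 177 CPM in JMML, against 132, 124 and 135 CPM in WT. Every JMML library was above every WT library. Its log2 fold change was 0.34 ± 0.10 at an adjusted p of 0.0489 and 0.24 at an adjusted p of 0.139 with length adjustment. Without adjustment for length its call held without JMML replicate 1 and ended without each other single library (adjusted p between 0.0883 and 0.179). Cdk1, the mitotic kinase itself, had 166, 135 and 165 CPM in JMML, against 131, 116 and 131 CPM in WT; the groups did not overlap, and the log2 fold change of 0.30 ± 0.12 did not pass (adjusted p = 0.105). The other members here had log2 fold changes of 0.25 for Ccnb1, 0.21 for Ube2c (the ubiquitin-conjugating enzyme of the anaphase-promoting complex), 0.13 for Cdc20 (its activator), and 0.01 for the S and G2 cyclin Ccna2.

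None of the 7 mitotic kinases and chromosomal passenger genes was called in edgeR, DESeq2 or limma-voom. Those tests called 26.2%, 32% and 27% of all tested genes. None of the 7 had an unadjusted p under 0.05 in edgeR, against 40.9% of all tested genes. Aurkb, the kinase of the passenger complex that corrects wrong attachments, had the smallest p, with 78.6, 97.5 and 108 CPM in JMML, against 86.8, 70.2 and 80.4 CPM in WT. The log2 fold changes of this group ran from −0.10 for Incenp to 0.26 for Aurkb. Plk1, Aurka, its spindle activator Tpx2, Birc5 (survivin) and Cdca8 (borealin) lay between, and in all 7 JMML replicate 3 was the highest and JMML replicate 1 the lowest JMML library. The 4 spindle checkpoint genes Bub1, Bub1b, Ttk and Mad2l1, which delay anaphase until chromosomes are attached, lay between 0.09 and 0.24. Of them 0 were called in edgeR, DESeq2 or limma-voom and 0 had an unadjusted p under 0.05, against the same shares of all tested genes. With length adjustment they lay between 0.13 and 0.39, with 1 at an unadjusted p under 0.05, against 40.5% of all tested genes. Bub1, the one with the smallest p, had 124, 102 and 144 CPM in JMML, against 101, 109 and 104 CPM in WT.

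Of the 6 centromere and kinetochore genes, Cenpf was lower without length adjustment and Ndc80 was higher with it. Cenpf, a large protein of the outer corona (chromosome 1, 189640606 to 189688086, minus strand), had 215, 201 and 208 CPM in JMML, against 254, 283 and 277 CPM in WT. All JMML values were below all WT values, and the log2 fold change was −0.38 ± 0.10 (adjusted p = 0.0324). With length adjustment it was −0.06 (interval −0.31 to 0.19; adjusted p = 0.705), and the groups overlapped. Without adjustment for length, its call also ended without any single library, at −0.39 to −0.33 and adjusted p between 0.0507 and 0.124. Ndc80, the microtubule-binding subunit of the outer kinetochore (chromosome 17, 71496100 to 71526857, minus strand), had 68.1, 64.1 and 82.4 CPM in JMML, against 54.4, 59.0 and 57.5 CPM in WT.

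The groups did not overlap for Ndc80. Its log2 fold change was 0.33 ± 0.12 (adjusted p = 0.0858), and 0.43 ± 0.12 with length adjustment (adjusted p = 0.0382); that call held without JMML replicate 2 and ended without each other single library, at 0.34 to 0.48 and adjusted p between 0.058 and 0.119. Its partners in the same complex, Nuf2 and Spc25, had log2 fold changes of 0.11 and −0.04, the last with the widest interval of the 40, from −0.84 to 0.75. Spc25 had 32.5, 23.5 and 56.5 CPM in JMML, against 44.6, 26.8 and 44.7 CPM in WT. Cenpa, the histone variant that marks centromeres, had 91.8, 72.3 and 80.2 CPM in JMML, against 109, 108 and 85.4 CPM in WT, without a call (−0.31 ± 0.14; adjusted p = 0.142). The kinetochore motor Cenpe was at −0.10.

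Of the spindle motors and microtubule proteins, Aspm passed the test. It encodes a spindle pole protein (chromosome 1, 139454772 to 139494091, plus strand) and had 166, 142 and 155 CPM in JMML, against 201, 214 and 205 CPM in WT. The groups did not overlap, and the log2 fold change was −0.42 ± 0.11 (adjusted p = 0.0262). With length adjustment it was −0.17 (interval −0.43 to 0.09; adjusted p = 0.29) and the groups overlapped. Without adjustment for length the call held without JMML replicate 1 and ended without each other library (adjusted p between 0.0764 and 0.0901). The other 5, the motors Kif11, Kif2c and Kif4 and the microtubule proteins Hmmr and Nusap1, had log2 fold changes between −0.02 and 0.28, or 0.05 and 0.30 with length adjustment. Of the 6 genes of the central spindle and cytokinesis none was called in edgeR, DESeq2 or limma-voom. Those tests called 26.2%, 32% and 27% of all tested genes. Of the 6, 1 had an unadjusted p under 0.05 in edgeR, against 40.9% of all tested genes.

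That gene was Kif20a, a kinesin of the central spindle, with 179.7, 189.9 and 229.9 CPM in JMML, against 169, 144 and 157 CPM in WT. Its groups did not overlap, and its log2 fold change was 0.35 ± 0.13 (adjusted p = 0.0862). Kif20a shares 1271 of 4338 exon bases with Cdc23 on the opposite strand, and the strand setting of the counting is not given in the sources used here, so counts of the 2 genes cannot be told apart there. Prc1, which bundles microtubules at the midzone, had 97.7, 102 and 119 CPM in JMML, against 135, 130.0 and 116 CPM in WT; its log2 fold change was −0.25 ± 0.12 (adjusted p = 0.152), and −0.10 with length adjustment. Kif20b, Kif23, the contractile ring scaffold Anln and Ect2 lay between −0.04 and 0.11.

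**Figure D3:**
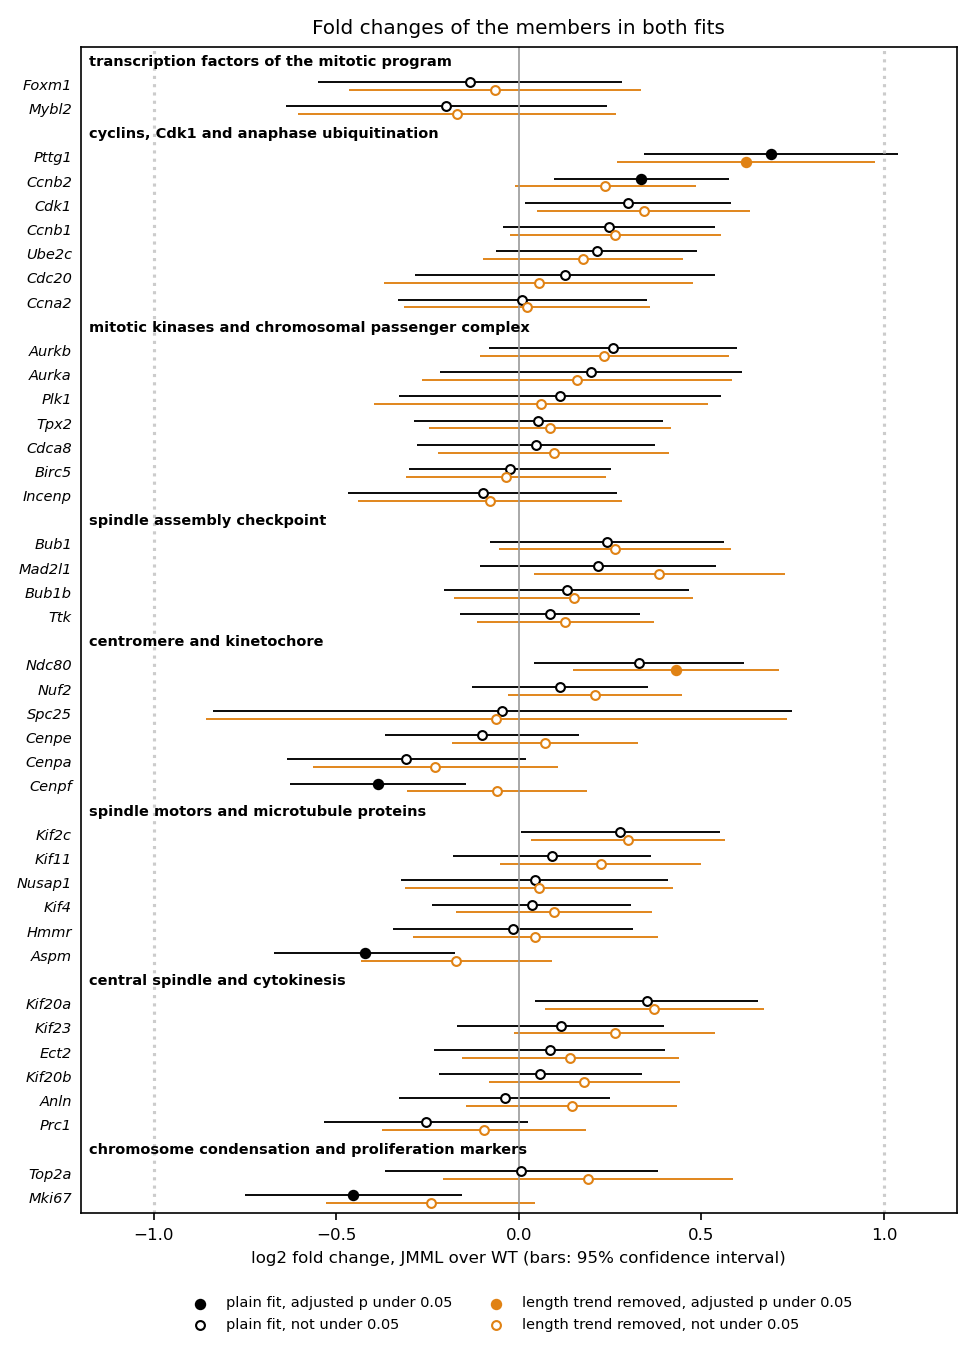
Log2 fold change, JMML over WT, with 95% confidence intervals for each member without length adjustment (black) and with the length trend removed (orange); filled circles have an adjusted p under 0.05. Dotted lines mark 2-fold. The filled circles are Pttg1, Ccnb2, Cenpf, Aspm and Mki67 in black and Pttg1 and Ndc80 in orange.

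The groups did not overlap for 7 members with JMML above WT (Pttg1, Ccnb2, Cdk1, Ube2c, Ndc80, Kif2c and Kif20a) and 3 with JMML below (Mki67, Aspm and Cenpf), in all 10 of 40. Over all tested genes the groups did not overlap for 22.9% above and 24.6% below, 47.5% in all. With length adjustment it was 10 above and 1 below, against 23.9% of all tested genes above and 22.7% below, 46.6% in all. Within the libraries whose identifiers end in M, which leaves JMML replicate 3 against the 3 WT libraries, the members' median log2 fold change was 0.29 without and 0.35 with length adjustment, against −0.12 and −0.06 for all tested genes. There, edgeR called 0 members without length adjustment, with 11 at an unadjusted p under 0.05, against 11.5% and 30.9% of the 20167 genes tested there. With length adjustment it called 1 member, Ndc80 (0.65; adjusted p = 0.0394), against 11.4% of those genes; the lone JMML library is assumed to vary like the WT ones. No WT library carries the letter F, so no value could be had there. Without JMML replicate 3, the members' median was 0.03 without and 0.04 with length adjustment. In that subset edgeR called 1 member, Pttg1, without length adjustment, against 18.2% of the genes tested there. With length adjustment it called 0 members, against 17.8%, and 2 had an unadjusted p under 0.05, against 35.1%.

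Other genes of mitosis, in 10 lists with 132 genes, also had a median near 0. Of these, 4 were higher and 10 lower in JMML, against 12.4% and 13.8% of all tested genes, and 9 were higher and 6 lower with length adjustment, against 13.4% and 12.3%. Their median log2 fold change was 0.00 without and 0.04 with it. In the inner kinetochore list Mis18a, part of the complex that licenses loading of the centromeric histone, rose (0.83 ± 0.12; adjusted p = 0.00501), the 1 call of 17. Of 16 genes of the anaphase-promoting complex list, Anapc16 (0.73 ± 0.14; adjusted p = 0.012) and Anapc10 (0.69 ± 0.21; adjusted p = 0.0495) rose and 0 fell. Of 20 other motors and microtubule proteins, Cep55, which recruits the abscission machinery, rose (0.89 ± 0.19; adjusted p = 0.0163), and Kif2a, a microtubule depolymerase, fell (−1.10 ± 0.16; adjusted p = 0.00539). Psrc1 (−0.78 ± 0.19; adjusted p = 0.0256) and the midbody kinase gene Cit (−0.73 ± 0.15; adjusted p = 0.0136) fell too. The fall of Cit did not pass with length adjustment (−0.39; adjusted p = 0.0939).

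Of 14 genes of mitotic entry control, Cdc25b, a phosphatase that activates Cdk1, fell to 28.4 CPM in JMML, against 63.1 CPM in WT (log2 fold change −1.15 ± 0.16; adjusted p = 0.00471). Ppp2r2a, a regulatory subunit of the phosphatase PP2A, fell likewise (−1.06 ± 0.20; adjusted p = 0.0106). In the list of DREAM and MuvB regulators E2f4 (−0.58 ± 0.17; adjusted p = 0.0387) and Tfdp2 (−1.44 ± 0.44; adjusted p = 0.0491) fell, and Tfdp2 did not pass with length adjustment (adjusted p = 0.0894). In the cohesin list Pds5b and Nipbl fell and in the outer kinetochore list Knl1 fell. Of these 3 only Pds5b passed with length adjustment (−0.44, adjusted p = 0.0151). Without length adjustment, 2 of 14 entry control genes, 2 of 11 DREAM and MuvB genes and 2 of 9 cohesin genes were lower. The outer kinetochore list had 1 of 14 lower, and over all tested genes 13.8% were called lower. Genes that passed with length adjustment but not without it included Stag1 of cohesin (0.36; adjusted p = 0.0439), Racgap1 of the central spindle (0.46; adjusted p = 0.0483) and Arpp19, an inhibitor of PP2A (0.35; adjusted p = 0.045), all higher in JMML. The condensin, centrosome and checkpoint guard lists had 0 calls in edgeR, DESeq2 and limma-voom, against 26.2%, 32% and 27% of all tested genes. In edgeR 0 of 8, 2 of 13 and 2 of 10 of their genes had an unadjusted p under 0.05, against 40.9%. With length adjustment 1 of the checkpoint guards, Bub3, rose (0.46, adjusted p = 0.0407). Of 30 replication and G1/S genes, 1 fell and 0 rose, against 13.8% and 12.4% of all tested genes, with a median of −0.13. The 1 that fell was Cdc6, which loads the replicative helicase (−0.71 ± 0.18, adjusted p = 0.026).

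Markers of several cell types differed in the same libraries. Over all tested genes 12.4% were called higher and 13.8% lower. Of 10 B-cell precursor markers all 10 were lower in JMML, at a median of −5.57 on the log2 scale and a summed level of 10.2 to 17.0 CPM in JMML, against 140.0 to 570.2 CPM in WT. Of 10 red cell markers tested, 8 were lower (267 to 952 CPM in JMML, against 2051 to 2660.2 CPM in WT), and all 8 platelet markers and all 6 T-cell markers were lower. Of 7 markers of granulocyte and monocyte progenitors 5 were higher (3588 to 5272 CPM in JMML, against 2951 to 3403 CPM in WT). Also higher were 4 of 6 monocyte markers and 2 of 8 mature neutrophil markers. The monocyte marker Cx3cr1 went the other way, without a call in edgeR (−0.37, adjusted p = 0.12). Of 6 sinusoidal endothelial markers 5 were lower. With length adjustment 9 red cell markers were lower and 4 progenitor markers higher, and the other marker lists kept their counts. Over all tested genes that fit called 13.4% higher and 12.3% lower. Vpreb3 was at 0 counts in a JMML library and no marker was at 0 in all 3. In such mixed RNA, fewer cycling cells and less RNA per cell cannot be told apart, and the part of these cell types in the members' values was not tested.

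**Figure D4:**
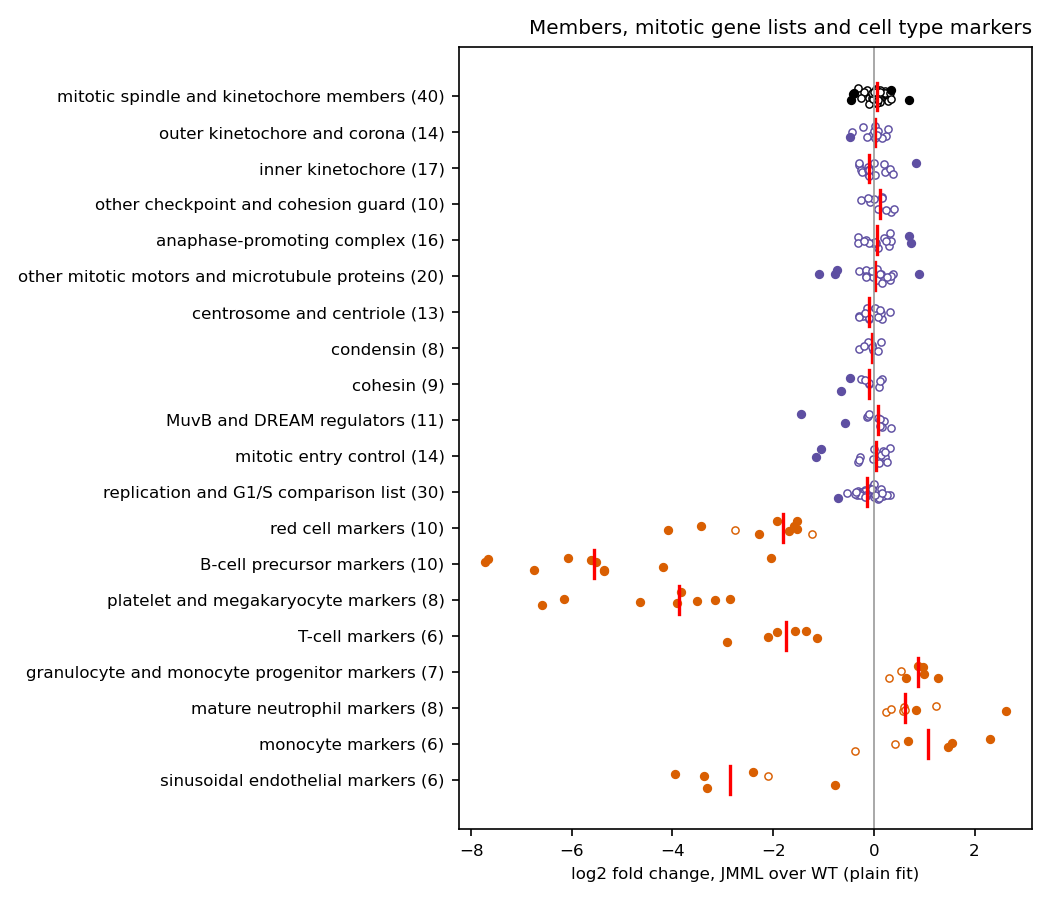
Log2 fold change, JMML over WT, without length adjustment, for the 40 members (black), the 11 lists of other mitotic and replication genes (purple) and the 8 lists of cell type markers (orange), with the number of genes tested in parentheses. Filled points have an adjusted p under 0.05 and red bars are medians: 0.07 for the members, −5.57 for B-cell precursor markers and 0.88 for granulocyte and monocyte progenitor markers.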

How the data were processed

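Total RNA was sequenced in 3 JMML and 3 WT libraries made, per the labels' protocols, with a stranded kit that depletes ribosomal RNA. The deposited files hold raw counts, 1 whole number per Ensembl gene, not normalized by the authors. GRCm38, STAR 2.5.3a, StringTie 1.3.3b and DESeq2 1.22.2 are named, without roles, per the submitters' processing notes. Counting tool, annotation and strand setting: not given in the sources used here. Totals ranged from 91976512 to 108395459 counts in JMML and from 47096464 to 61656272 in WT. A member had between 448 and 199850 counts in a library. Between 51.6% and 58.8% of counts of 1 to 20 were even; whether mates of a pair were counted separately was not tested.

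Of 46078 identifiers 45229 matched GENCODE vM21 (GRCm38), which gave symbols, positions and exon lengths. The main test was edgeR 4.0.16 under R 4.3.3 (filterByExpr, TMM, quasi-likelihood F test, Benjamini-Hochberg over all tested genes, threshold 0.05). SE is the absolute log2 fold change over the square root of F, and intervals use its t quantile. The length adjustment added a loess offset per library (span 0.5, log2 union exon length, centred). Genes without a length got no offset. DESeq2 1.42.0 and limma 3.58.1 (voom) were alternatives. SDs of log2 CPM used a pseudocount of 0.5. Both fits were tested on simulated data. Figures used matplotlib 3.10.9.

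The members and gene lists were chosen with earlier results of these data known. Values in every library are given for the member with the smallest p in each role and the 5 largest and 5 smallest log2 fold changes; Foxm1 and Spc25 were added after their values were seen. Of each other list, genes are named from the 3 with the smallest p and a mean log2 CPM of 1 or more. Psrc1, Stag1 and Racgap1 lie outside that rule and Arpp19 within it, and all were named after their values were seen. Of the members, 11 share exon bases with another annotated gene, 9 of them on the opposite strand, and 0 of these were called. Ccnb1, Ccnb2 and Kif4 have annotated pseudogenes whose reads cannot be told apart with certainty. No group has enough libraries for a test of outliers.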

Additional observations from a re-analysis of the deposited data

How the results depend on the processing

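Without length adjustment, Pttg1 and Ccnb2 higher and Mki67, Aspm and Cenpf lower were the calls in the DESeq2 Wald test, in limma-voom and after thinning to equal totals too. With DESeq2 size factors and with a filter of 50 counts in 3 libraries, 4 members were called, 1 of them higher. Of all genes tested there, 26.1% and 28.9% were called. Without a filter on low counts 1 member was called, higher, against 13.6% of genes. With library totals alone 4 were called, 0 of them higher, against 26.2%. With the replicate number as a block and with the identifier letter as a covariate, 0 were higher and 0 lower. Of all genes tested there, 15.5% and 12.3% were called. In those 2 edgeR fits 6 and 10 members had an unadjusted p under 0.05, against 35.2% and 31.5% of genes. With the length offset as fitted, 2 were higher and 0 lower, against 25.5% of all genes called. Leaving out 1 library gave 1 to 2 higher and 0 to 1 lower, where 11.7% to 21.5% of all genes tested were called. In the length-adjusted fit it gave 0 to 2 higher, where 11.3% to 21.8% were called. In that fit 0 were higher under the block and 1 (Ndc80) under the letter covariate, against 14.4% and 12.1% of all genes called. With the longest transcript as the length 1 (Pttg1) was higher, against 25.4% of all genes called. That setting ended the call of Ndc80 (adjusted p = 0.0506). Under it Mki67, Aspm and Cenpf had log2 fold changes of −0.09, −0.06 and 0.02.

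The members' median log2 fold change was −0.11 with library totals alone, where the median of all genes shifted by −0.18 and 27.0% of all calls were higher in place of 47.4%; relative to all genes the members stood at 0.09 there and 0.10 with TMM. With those totals Cenpa was called lower as well, 4 members in all, and the members summed to 7191, 7775 and 8948 CPM in JMML, all below the 9539.8, 9870.0 and 9461 CPM in WT. The median was 0.29 in M only, and with length adjustment 0.33 with the letter and 0.35 in M only. Of 162 genes in the other mitotic and replication lists, 4 were higher and 11 lower, against 12.4% and 13.8% of all tested genes. With length adjustment 9 were higher and 7 lower, against 13.4% and 12.3%. The block ended all 5 calls, with the smallest adjusted p for Pttg1 (adjusted p = 0.0531). Same-numbered libraries deviated from their group means with correlations of −0.20, 0.05 and −0.14, so the replicate numbers were not taken to pair the libraries, and not every library correlated best with its own number. Replicate 3 of JMML and of WT share the first part of their sample identifiers, whose meaning the labels do not give; no other libraries of the groups do, so no fit with that part as a block was made. With 3 libraries a group, changes well under 2-fold were called in part; the median half-width of the members' intervals was 0.31 on the log2 scale.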
